A study of Drosophila melanogaster with 63 samples.

Results

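Peptide hormones and neuropeptides are cut out of larger precursor proteins inside the dense-core vesicles of neurons and endocrine cells. Convertases cut the precursor at pairs of basic residues, a carboxypeptidase trims the basic residues left at the end, and an amidating enzyme pair converts a terminal glycine into the amide that many peptides need to act. In flies such peptides govern feeding, sugar and lipid use, moulting and egg production. The genes described here are 6 of the 9212 genes measured on the arrays, and each had a value in all 12 groups of the study. They are amon (CG6438), the fly convertase of the PC2 type, 7B2 (CG1168), the helper protein that PC2 convertases need to mature, svr (CG4122), a carboxypeptidase of the D type, and Phm (CG3832), which carries out the first step of amidation. IA-2 (CG31795) encodes a receptor-type tyrosine phosphatase of the dense-core vesicle membrane, known in mammals as an autoantigen of type 1 diabetes, and Nplp3 (CG13061) encodes a neuropeptide-like precursor. The members were chosen by symbol, for their known roles and with their log2 ratios in these groups already known, so the ratios below are a description and support no test.

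All animals were Drosophila melanogaster, wild type OregonR, kept at 25 C, and each array set a treated against a control RNA in 2 dye channels. Adult flies (38 arrays) were kept on filter paper soaked with PBS alone (starved) or with PBS and 20% sucrose (sugar), against adults of the same sex on yeast paste, and larvae (25 arrays) were taken 52, 64, 76, 88 or 100 h after egg laying, with 40 h larvae as their control. Females starved for 24 and 48 h had 6 and 5 arrays, females on sugar 5 and 6, males starved for 24 h 6, males on sugar 6 and 4, and the larval ages 6, 5, 6, 4 and 4 from the youngest to the oldest. In the group of 48 h starved females, 2 of the 5 arrays carry an identical lot entry. The labels give neither the age of the adults nor how long their controls stayed on yeast, and name no organ.

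All arrays of a group carry the same merged value, so each gene has 1 log2 ratio per group, with no spread between replicates and no p-value. Ratios are called likely treated over control, on the basis that each array's control is labelled and on Lsp2. That gene, which late larvae make as a storage protein, stood at 8.52 at 88 h and at 8.26 at 100 h. This bears on the larval arrays only. In the adult groups Lsp2 lay between -7.25 and -4.59, and their direction was not checked separately. A technical yardstick comes from the 645 genes with exactly 2 clones on the array. The 95th percentile of the difference between both clones was 0.54, 0.74, 0.50 and 0.78 in females (starved for 24 and 48 h, sugar for 24 and 48 h). It was 0.36, 0.37 and 0.50 in males and 0.62, 0.65, 0.85, 0.91 and 1.09 in larvae from 52 to 100 h. It describes the gap between 2 clones, not the error of 1 value or of a median, and it does not cover differences between animals. Of the members, svr had 3 clones with values and the others 1 each. The platform annotation lists 5 clones for IA-2 and 2 for Phm, but 1 of each had values here.

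The 6 genes did not share 1 pattern. In females taken off yeast IA-2, 7B2 and amon stood above the yeast-fed control on both diets and at both times, while svr and Phm lay nearer to it. In males all 6 genes lay at log2 ratios between -0.33 and 0.33. Their median in females was 0.30 and 0.69 when starved and 0.35 and 0.76 on sugar, at 24 and 48 h. In males it was 0.02 when starved and 0.09 and 0.04 on sugar. The median over all genes lay between -0.03 and 0.02 in every group of the study. At least 2-fold from the control was 1 of the 6 genes in females starved for 24 h (1.18% of all genes), 1 at 48 h (1.97%), 1 in females on sugar for 24 h (1.51%) and 2 at 48 h (2.96%). None was in starved males (0.587%) or in males on sugar at 24 h (1.24%) and 48 h (2.04%). These 5 of 42 adult values were all on the high side, 4 of them of IA-2.

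**Figure D1:**
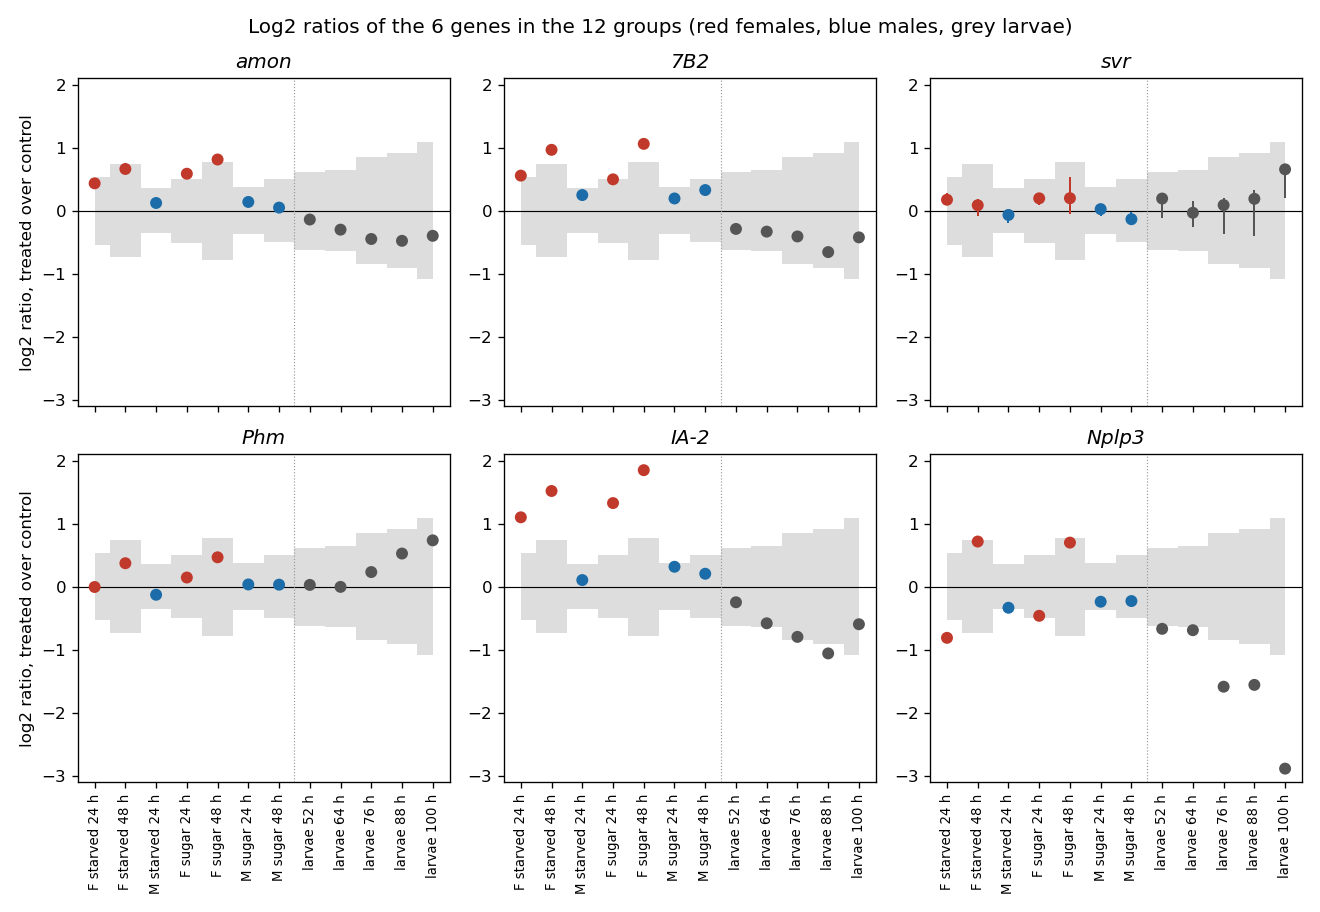
Log2 ratio (likely treated over control) of each gene in the 12 groups, 1 point per group, with females in red, males in blue and larvae in grey. The grey band is the 95th percentile of the difference between 2 clones of a gene in that group, and the bars of svr span its 3 clones. IA-2 lies above the band in the 4 female groups, up to 1.85, and Nplp3 lies at -2.89 in larvae of 100 h.

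The convertase gene amon had log2 ratios of 0.44 and 0.66 in females starved for 24 and 48 h, and of 0.59 and 0.81 in females on sugar. In males it was at 0.12 when starved and at 0.14 and 0.05 on sugar. Only both values on sugar in females were beyond the clone yardstick of their group, and the 4 female values were higher than the 3 male ones. Its partner 7B2 was in females at 0.56 and 0.97 when starved and at 0.50 and 1.06 on sugar. In males 7B2 stood at 0.25 when starved and at 0.20 and 0.33 on sugar, a little above the control but always inside the clone yardstick. Its female values were beyond the yardstick except that on sugar at 24 h. The value of 1.06, a ratio of 2.09, passed 2-fold and that of 0.97 stopped just short of it. Over the 12 groups the values of amon and 7B2 never lay more than 0.30 apart.

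The carboxypeptidase gene svr stayed near the control in adults, with 0.17 and 0.09 when starved and 0.20 and 0.20 on sugar in females, and with -0.07 when starved and 0.03 and -0.13 on sugar in males. Its 3 clones ranged from -0.07 to 0.17 in females starved for 48 h and from -0.04 to 0.52 in females on sugar for 48 h, so that the sign was not settled there. For Phm the female values were 0.00 and 0.37 when starved and 0.15 and 0.47 on sugar. In males it was at -0.13 when starved and at 0.04 and 0.03 on sugar. Phm thus lay higher at 48 h than at 24 h in females on both diets, and all its adult values were inside the clone yardstick.

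IA-2 had the highest log2 ratio of the 6 genes in the 4 female groups: 1.10 and 1.52 in starved females, and 1.33 and 1.85 on sugar, at 24 and 48 h. These are ratios to yeast of 2.15, 2.87, 2.51 and 3.60. Among all measured genes, 19, 18, 10 and 13 stood as high or higher, IA-2 counted in. In males IA-2 was at 0.11 when starved and at 0.32 and 0.21 on sugar. The female values were all far above the male ones. In the order of the groups, females on sugar for 48 h came first, then starved for 48 h, on sugar for 24 h and starved for 24 h. Diets at the same time differed by -0.23 at 24 h and -0.33 at 48 h (starved minus sugar), inside the yardsticks of 0.43 and 0.57 for those differences.

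Nplp3 did not stay on 1 side of the control in females. At 24 h it was lower than on yeast, at -0.81 in starved females and -0.46 in females on sugar, and at 48 h it was higher, at 0.72 and 0.70. In males it lay below the control throughout, at -0.33 when starved and at -0.24 and -0.23 on sugar. Females thus held both the lowest and the highest adult values of this gene. Only the value of starved females at 24 h was beyond the clone yardstick, and 1.22% of all genes lay lower there.

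The step from 24 to 48 h was compared by subtracting the log2 ratios. For such differences the 95th percentile between 2 clones of a gene, taken of the difference itself, was 0.77 in starved females, 0.66 in females on sugar and 0.50 in males on sugar. Of the 6 genes, 1 was beyond it in starved females (2.44% of all genes), 1 in females on sugar (2.76%) and none in males on sugar (3.27%). In both female comparisons this was Nplp3, higher at 48 h by 1.53 and 1.16, against 0.01 in males on sugar. The other genes shifted less: 7B2 by 0.41 and 0.56 in females, IA-2 by 0.42 and 0.52, Phm by 0.38 and 0.32, and amon by 0.23 on both diets. For svr the shift was -0.09 and 0.00. Whether the controls of both times came from the same flies is not given.

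Female ratios exceeded male ratios on the same diet for most of the genes. After 24 h of starvation the difference, female minus male, was 1.00 for IA-2 and between 0.12 and 0.31 for amon, 7B2, svr and Phm, and -0.48 for Nplp3. On sugar for 24 h it was 1.01 for IA-2, 0.45 for amon, 0.30 for 7B2, 0.17 for svr, 0.11 for Phm and -0.22 for Nplp3. At 48 h all 6 differences were above 0, with 1.64 for IA-2, 0.93 for Nplp3, 0.76 for amon, 0.73 for 7B2, 0.43 for Phm and 0.33 for svr. The yardsticks of these 3 differences were 0.58, 0.50 and 0.86. IA-2 was beyond it each time, and Nplp3 at 48 h as well, which makes 1, 1 and 2 of 6 genes, against 3.99%, 5.99% and 5.76% of all genes. A difference between ratios can come from either sex or from its control.

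**Figure D2:**
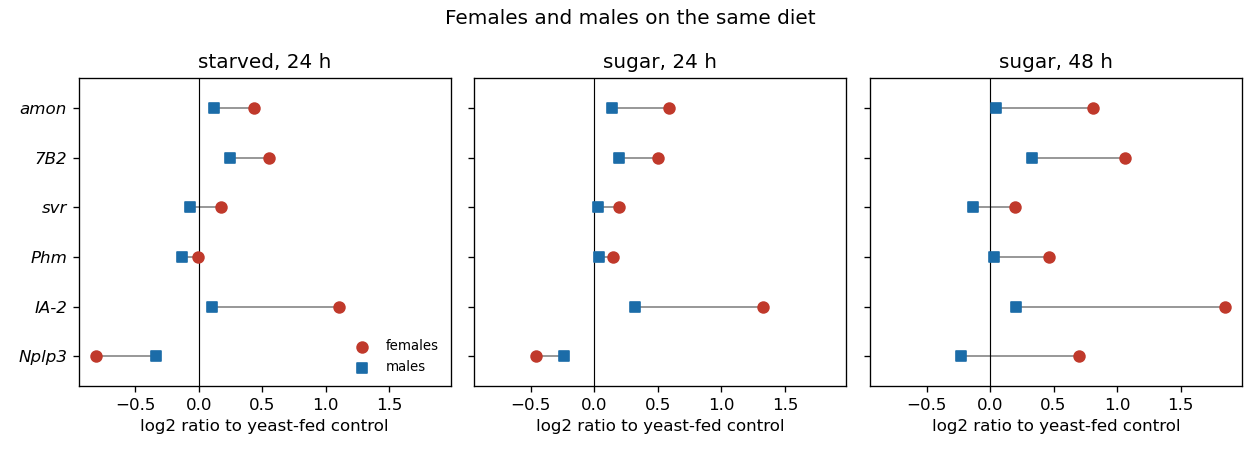
Log2 ratio to the yeast-fed control of each gene in females (red circles) and males (blue squares), with 1 panel for each diet and time that both sexes had and a line joining both values. The longest lines are those of IA-2, at 1.85 in females and 0.21 in males on sugar for 48 h, and Nplp3 changes side in females between 24 and 48 h of sugar.

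The diets were compared by subtracting the ratio on sugar from that in starvation. None of the 6 differed beyond the yardstick (0.43, 0.57 and 0.42) between the diets in females at 24 h (2.06% of all genes did), in females at 48 h (4.77%) or in males at 24 h (3.5%), and with so few genes beyond it a count of none says little about the members. The medians over the genes, starved minus sugar, were -0.15, -0.10 and -0.09. The widest gap was that of Nplp3 in females at 24 h, at -0.35, where 1.47% of all genes had a lower difference. For IA-2 the differences of -0.23 and -0.33 in females and -0.21 in males had 5.29%, 4.60% and 6.61% of all genes below them.

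Genes typical of other tissues also differed from the control in the same female groups. The yolk and eggshell list had 14 measured genes, with fit counted among them. Its female medians were -2.26 and -3.03 when starved and -2.86 and -2.81 on sugar, against male medians of -0.10, 0.00 and 0.12. Of these 14 genes, 12 and 14 were at least 2-fold lower in females when starved, and 13 and 14 on sugar. Female medians of the 9 muscle genes were 0.46 and 0.97 when starved and 0.51 and 1.02 on sugar, and those of the 7 eye genes were 0.85, 1.25, 1.04 and 1.53. In males the muscle medians were 0.04 when starved and -0.02 and -0.05 on sugar, and the eye medians were above the control too, at 0.36 when starved and 0.25 and 0.26 on sugar. The 13 genes of neurons and synapses were at 0.23, 0.31, 0.28 and 0.39 in females and at 0.08, 0.03 and 0.08 in males. Ratios give no level of these markers, and their part in the values of the 6 genes was not tested. In RNA of many tissues, more RNA from a cell type and more RNA of a gene per cell cannot be told apart.

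Set against the neuron and synapse list, the 6 genes had a female median 0.07 and 0.38 above it when starved and 0.06 and 0.36 above it on sugar, at 24 and 48 h. Only Csp and Sh of that list had more than 1 clone. With these as the base, the same distances were 0.19 and 0.57 when starved and 0.27 and 0.60 on sugar. The size of the distances thus depends on the base. Each shift was inside the clone yardstick of its group, which is no measure of the error of a median. Against the full list, IA-2 was above that list in females by 0.87 and 1.21 when starved and by 1.04 and 1.45 on sugar, and in males by 0.03, 0.29 and 0.13. For 7B2 the distance was 0.33, 0.66, 0.21 and 0.67 in the female groups, and for amon 0.20, 0.35, 0.30 and 0.42. Against the same base svr was lower in females, at -0.06, -0.22, -0.09 and -0.20. Nplp3 stood at -1.04 and -0.74 at 24 h and at 0.41 and 0.31 at 48 h. Phm was at -0.24, 0.06, -0.14 and 0.07 in the female groups. In males the median of the 6 genes was at -0.06, 0.06 and -0.04 against the list. In larvae that median lay below the list at every age, at -0.19, -0.17, -0.29, -0.56 and -0.42 from 52 to 100 h.

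**Figure D3:**
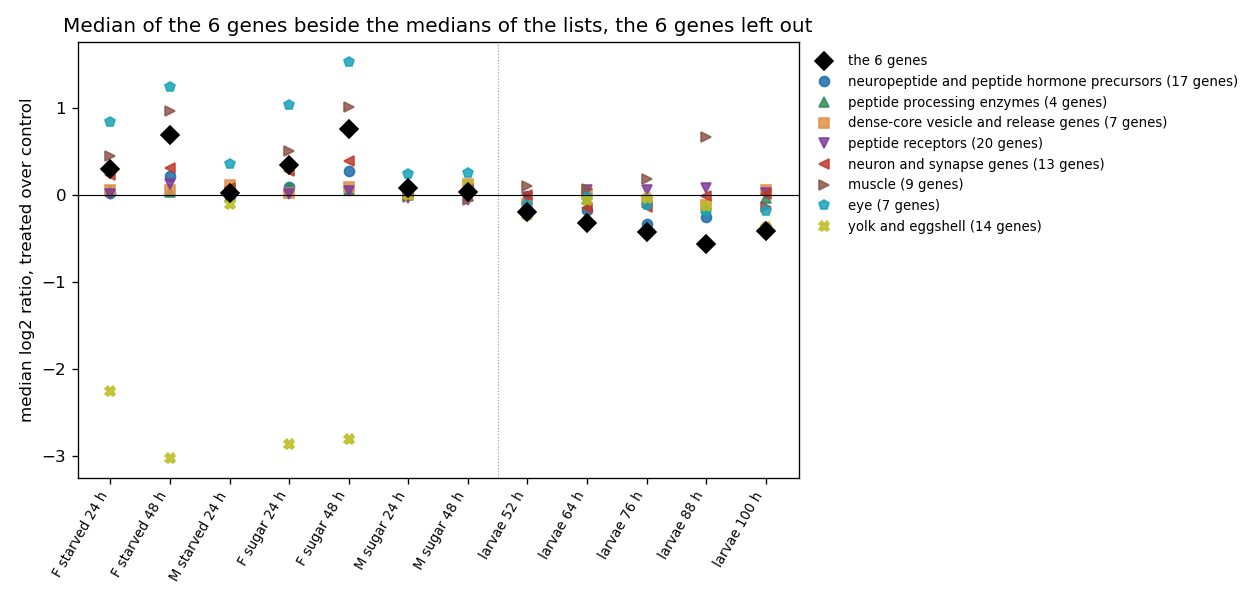
Median log2 ratio of the 6 genes (black diamonds) in each of the 12 groups, beside the medians of 8 gene lists from which the 6 genes were left out. In the female groups the 6 genes lie between the neuron list and the muscle and eye lists, while the yolk and eggshell list lies at -2.26 to -3.03.

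In larvae the genes separated into 2 directions by the sign of their ratios. Compared with larvae of 40 h, amon, 7B2, IA-2 and Nplp3 were lower at every age. Phm, and svr by the median of its clones, were higher at the 3 oldest ages. All larval values of amon, 7B2, Phm and svr lay inside the clone yardstick, so the split is one of sign only for these genes. The median of the 6 genes was -0.19, -0.32, -0.43, -0.57 and -0.41 from 52 to 100 h. At least 2-fold from the 40 h control were none of the 6 at 52 h (2.28% of all genes) and at 64 h (1.18%), 1 at 76 h (4.88%), 2 at 88 h (7.46%) and 1 at 100 h (11.7%). These 4 of 30 larval values were all on the low side, 3 of them of Nplp3. All ages may share the 40 h control RNA, and the labels do not say.

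From 52 to 100 h amon was at -0.14, -0.30, -0.45, -0.48 and -0.40. At the same ages 7B2 was at -0.29, -0.33, -0.41, -0.66 and -0.42. Both were lowest at 88 h, and all their larval values were inside the clone yardstick. IA-2 was at -0.25, -0.58, -0.80, -1.06 and -0.59. It too was lowest at 88 h, at a ratio of 0.48, and only there beyond the yardstick.

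Phm, the hydroxylating enzyme, was at 0.03, 0.00, 0.23, 0.53 and 0.74 from 52 to 100 h, higher at each step after 64 h. The trimming enzyme svr was at 0.19, -0.03, 0.09, 0.19 and 0.66. One clone of svr ran apart from the other two, at -0.36 and -0.39 at 76 and 88 h where the others lay between 0.09 and 0.31, and at 0.22 at 100 h against 0.66 and 0.72. Only at 100 h were all 3 clones above 0. All larval values of Phm and svr were inside the yardstick.

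Nplp3 was the lowest of the 6 genes at every larval age, at -0.67, -0.69, -1.59, -1.56 and -2.89. At 100 h its RNA was 7.39-fold lower than at 40 h, and 68 of the measured genes stood as low or lower, Nplp3 counted in. At 52 h Nplp3 was already below the 40 h control by more than the clone yardstick of 0.62. Its ratio then differed by -0.02 from 52 to 64 h and by 0.03 from 76 to 88 h. It went down in 2 further steps, with differences of -0.90 from 64 to 76 h and -1.33 from 88 to 100 h. Both steps were larger than the clone yardsticks of 0.66 and 0.85 for those differences. Over the 4 intervals none, 1, none and 1 of the 6 genes were beyond the yardstick, against 4.64%, 4.92%, 4.57% and 5.03% of all genes.

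**Figure D4:**
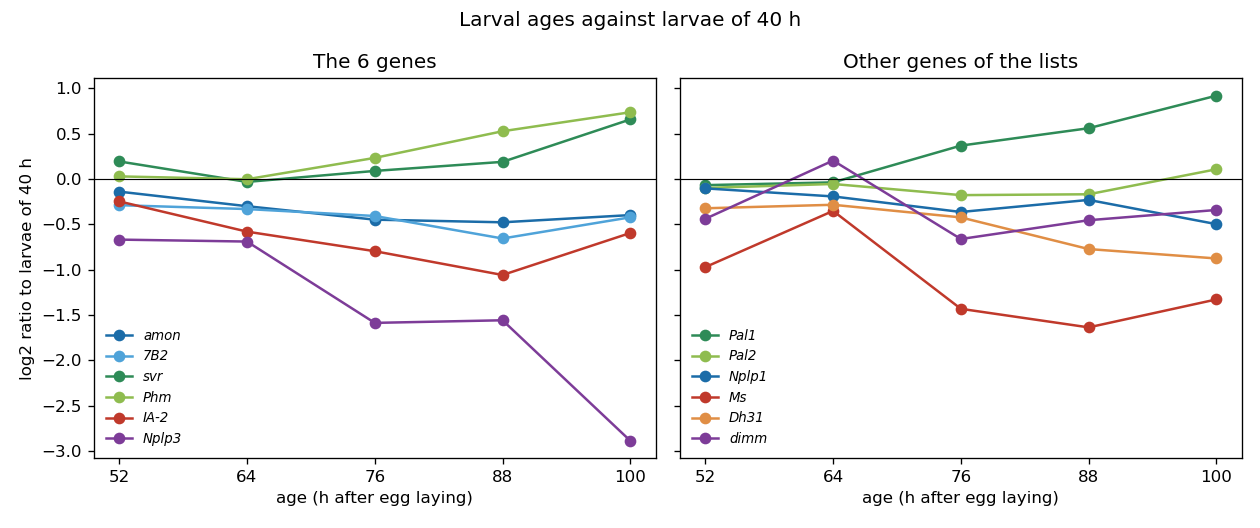
Log2 ratio to larvae of 40 h against age in hours after egg laying, for the 6 genes (left) and for 6 other genes of the peptide lists (right), with lines joining the ages. Phm and svr end above 0 at 0.74 and 0.66, as Pal1 does at 0.92, while Nplp3 ends at -2.89 and Ms at -1.33.

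The rest of the peptide pathway was followed in lists of known genes. Of 49 listed precursor genes 18 had values here, of 10 processing enzymes 8, of 15 vesicle and release genes 8, and of 39 receptors 20. Leaving out the 6 members, 48 genes remained. Their median was between -0.12 and 0.16 in the 12 groups. Of the 48, 1 (AkhR) was at least 2-fold higher in females starved for 48 h and 2 (AkhR and Nplp1) in females on sugar for 48 h. Of all genes, 1.97% and 2.96% were 2-fold from the control there, in either direction. None of the 48 was in the other adult groups, against 0.587% to 2.04% of all genes. In larvae 1 (Ms) was at least 2-fold lower at 76, 88 and 100 h, against 4.88%, 7.46% and 11.7% of all genes in either direction. Such small counts say little about the lists.

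Among the processing enzymes, Pal1 and Pal2 encode lyases that complete the amidation begun by Phm. Pal2 was in females at 0.23 and 0.66 when starved and at 0.32 and 0.86 on sugar, and in males at 0.08 when starved and at 0.14 and 0.26 on sugar. Pal1 had female values of 0.24 and 0.31 when starved and of 0.28 and 0.34 on sugar, and male values between 0.01 and 0.16. Like amon and 7B2, Pal2 stood higher at 48 h than at 24 h in females. In larvae Pal1 was at -0.07, -0.04, 0.37, 0.56 and 0.92 from 52 to 100 h, beside 0.74 for Phm at 100 h, while Pal2 stayed between -0.18 and 0.11. Fur2, a convertase of the furin type, was below the control in females, at -0.15 and -0.49 in starvation and -0.09 and -0.43 on sugar. The glutaminyl cyclase gene isoQC was at -0.14 and -0.24 in starved females, at -0.19 and -0.22 on sugar, and between -0.25 and -0.05 in males.

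Of the 8 vesicle and release genes IA-2 was the only one at least 2-fold from the control in any group. The small GTPase gene Rab3, of synaptic vesicles, had female values of 0.23 and 0.40 when starved and 0.31 and 0.51 on sugar, and Rab2 was at 0.23, 0.34, 0.29 and 0.35. The genes Sytbeta, Rab27 and dimm had the lowest adult medians of that list. The transcription factor gene dimm, known as a regulator of peptidergic cell differentiation, had female values of 0.06 and -0.06 when starved and of 0.02 and -0.29 on sugar. In larvae dimm was at -0.44, 0.20, -0.66, -0.45 and -0.34. The median of the 7 vesicle genes other than IA-2 lay between 0.02 and 0.10 in females and between 0.04 and 0.13 in males.

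Of the precursor genes, Nplp1 lay in females at 0.51 and 0.86 when starved and at 0.44 and 1.02 on sugar, and between 0.14 and 0.23 in males. It was thus close to 7B2 in every adult group. Ms, the precursor of myosuppressin, had female values of 0.28 and 0.68 when starved and 0.39 and 0.89 on sugar, and in larvae it was at -0.97, -0.35, -1.43, -1.64 and -1.33. After Nplp3 it was the lowest precursor in larvae by its median. Dh31, a diuretic hormone precursor, was at 0.21 and 0.63 in starved females and at -0.88 in larvae of 100 h, and Dh44 was at -0.89 at 52 h and -0.92 at 88 h. Trissin was below the control in females at 48 h, at -0.68 in starvation and -0.53 on sugar. The 17 precursors other than Nplp3 had medians of 0.02 and 0.22 in starved females and of 0.09 and 0.28 on sugar, and between -0.37 and -0.17 in larvae.

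Of the receptors, AkhR, the receptor of adipokinetic hormone in the fat body, stood in females at 0.49 and 1.03 when starved and at 0.66 and 1.28 on sugar. In males AkhR was at 0.02 when starved and at 0.59 and 0.65 on sugar, there above each of the 6 genes. The insulin receptor gene InR was between 0.61 and 0.82 in the female groups, and at 0.51, 0.19 and 0.21 in males. NPFR, the receptor of neuropeptide F, was between -0.19 and 0.08 in adults and between -0.44 and 0.14 in larvae. The median of the 20 receptors lay between -0.06 and 0.13 in all 12 groups.

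Likeness of pattern was described by Pearson's r over the 12 groups, which include larvae and adults and may share controls. Among the 6 genes r was 0.99 for amon and IA-2, 0.97 for amon and 7B2, and 0.76 for svr and Phm, but -0.15 for amon and svr and -0.12 for amon and Phm. In the 7 adult groups alone amon had r of 0.86 with svr and with Phm. All adult values of svr and Phm were inside the clone yardstick, and from 24 to 48 h in females svr differed by -0.09 and 0.00 where amon differed by 0.23 on both diets. Over the 12 groups Nplp3 had r of 0.79 with amon, 0.81 with 7B2, 0.75 with IA-2, -0.39 with Phm and -0.62 with svr. In adults these were, in the same order, 0.57, 0.76, 0.54, 0.86 and 0.13.

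With the median profile of the 6 genes, the highest r among the 9152 other genes were those of Arr1, an arrestin of photoreceptors (0.99), CG9686 (0.98), Nplp1 (0.98), CG14989 (0.98), CG5065 (0.97), hig, a protein of the synaptic cleft (0.97), and sqa, a kinase gene (0.97). High r was common here, as 181 of the other genes were above 0.9. None of the 8 highest genes stayed among the 8 when r was taken over the 7 adult groups, and 1 did with Spearman's rank correlation. For amon the nearest were CG5065 and Arr1, for 7B2 CG9686 and hig, and for IA-2 Arr1 and CG9686 (r of 0.97 to 0.98). For svr they were Pak3 (0.96) and tapas (0.95), and for Phm the nearest gene named here was teq (0.95).

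For Nplp3 the nearest were vkg (0.97) and Col4a1 (0.96), which encode both chains of collagen IV. The gene vkg lay in females at -0.15 and 1.31 when starved and at -0.03 and 1.01 on sugar, and between -0.15 and -0.10 in males. In larvae vkg was at -0.49, -0.79, -1.29, -1.35 and -2.14. Col4a1 had female values of 0.13 and 1.17 when starved and 0.00 and 0.87 on sugar, and it ended at -2.16 in larvae of 100 h. All 3 genes, picked by r for being alike, were thus higher in females at 48 h than at 24 h, and lowest in larvae at 100 h.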

How the data were processed

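The labels say that 3 scans were made of every array and that the authors combined both copies of a spot with all repeats of a hybridisation. The result is 1 deposited log2 ratio per clone and group, and the columns of a group were indeed identical in the table. The values show base 2: as powers of 2, 99.996% of 144996 absolute values give a number of at most 6 decimals, within 0.05 of the last decimal, against 9.98% as powers of e. Direction, centring, background correction and software are not given in the labels. Medians over clones were -0.03 to 0.02 per group. Of 12094 clones, 10148 had 1 symbol. It was brought up to date with RefSeq names (assembly Release 6) by gene identifier for 9814 clones and by accession for 87. The other 247 kept the platform symbol. Clones of a gene were combined by their median, for 9212 genes (Python 3.11.15, pandas 2.3.3).

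The test planned for arrays with values of their own could not be made, so at least 2-fold from the control is a threshold of size. The members, the lists and the rule for named genes were chosen with earlier results of these data known. The rule names the members, listed peptide genes at least 2-fold from the control in any group or among the 3 highest or lowest of their list by adult or larval median, and the genes nearest in r. Counting and likeness were tested on simulated data. Alternatives were the mean over clones, centring, annotation symbols, single clones, each gene left out, other folds, other bases and other measures of likeness. With 4 to 6 arrays in a group precision is limited, and spot brightness was not used here.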

Additional observations from a re-analysis of the deposited data

Results flagged for a closer look

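Nplp3 had ratios of opposite sign in 3 comparisons, with a difference larger than the clone yardstick of the comparison. Of the single values only that of -0.81 was beyond the yardstick of its own group. That yardstick describes the gap between 2 clones, so it cannot decide on which side of the control the others lay. Nplp3 was higher at 48 h than at 24 h by 1.53 in starved females (-0.81 and 0.72) and by 1.16 in females on sugar (-0.46 and 0.70). On sugar for 48 h it was higher in females than in males by 0.93 (0.70 and -0.23). These differences were not tested, since each group holds 1 value, and Nplp3 rests on 1 clone.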

How the results depend on the processing

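No paired analysis was possible because all arrays of a group carry the same merged value, and for the same reason leaving out single arrays could not be run. At 1.5-fold 12 of the 42 adult and 11 of the 30 larval values passed, and at 3-fold 1 and 2 did, against 5 and 4 at 2-fold. The shares of all genes past 1.5-fold and 3-fold were not computed, so these counts cannot be set against the other genes. Of the 8 genes most like the members, 1 remained with Spearman's correlation and 0 with the adult groups only. Leaving out 1 member moved a group's median by at most 0.15. In starved males the median then ran from -0.07 to 0.11 and so has no settled sign, and in females at 24 h it ran from 0.17 to 0.44 when starved and from 0.20 to 0.50 on sugar. Centring moved a median by at most 0.03. Relative to neuron genes the female medians depended on the base: with all genes as the base they were 0.31, 0.68, 0.35 and 0.78. The choice of clones could be varied for svr only, since 5 of the 6 genes rest on 1 clone, so it says nothing about the others. The clone yardstick is technical, and in every group it was wider than the size of the uncentred median of the 6 genes. It describes the gap between 2 clones of a gene, so it gives no error for that median. Variation between animals could not be measured.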
